A study of Mus musculus with 24 samples.

Results

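Transcript levels in the untreated plantaris of Mstn-/- mice (6 arrays) were compared with those in the untreated plantaris of wildtype mice (6 arrays). These 12 arrays were chosen by their titles from the 24 arrays of the study, whose other 12 arrays hold the same genotypes after the plantaris had been overloaded by taking out the soleus and most of the gastrocnemius. All mice were aged 3 months, the control mice of both genotypes were left untreated, and RNA of 1 plantaris per mouse was labelled by random priming and hybridised to an Affymetrix whole-transcript array. The kind of Mstn allele, the strain, the sex, the time of day at which muscles were taken and the length of the overload are not stated in the labels. On the 12 untreated arrays the female transcript Xist lay at log2 11.05 to 11.38. The Y-linked genes Uty, Eif2s3y and Kdm5d were at most 5.54, so both groups read as female. Probe sets with exactly 1 gene symbol stood for 19937 genes, each by its probe set with the highest mean over the 24 arrays. Of these, 14499 had a mean above the 30th percentile (intensity 98.9) in at least 1 of the 4 groups and were tested. Values are log2 intensities, so a difference of 1 is a 2-fold difference, and a gene was called when its limma p-value, adjusted by Benjamini-Hochberg over all 14499 genes, was under 0.05.

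Myostatin is a secreted protein of the TGF-beta family that muscle fibres release and that restrains their growth. It binds activin type II receptors, which act with a type I receptor to phosphorylate the transcription factors Smad2 and Smad3, and it is held in check by binding proteins such as follistatin. Mouse muscle without myostatin is known to be larger and to hold more fast glycolytic fibres. The plantaris is a largely fast ankle extensor, and its slow and fast fibres build their contractile apparatus from separate sets of genes.

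The Mstn probe set read lower in the mutant muscle. Its log2 intensity was lowest at 10.1, 10.27 at the median and highest at 10.4 in wildtype muscle, and 8.53, 8.87 and 9.33 in Mstn-/- muscle. Every Mstn-/- array lay below every wildtype array, and the difference was 2.51-fold (log2 -1.33 ± 0.13, SE, n = 6 per group, limma adjusted p = 2.7e-08). Signal was left on the Mstn-/- arrays, all above the level of the filter, and where the probe set lies relative to the deletion is not stated in the labels. Under overload the Mstn probe set no longer separated the genotypes, with means of 8.40 ± 0.19 (SD) in wildtype and 8.25 ± 0.30 in Mstn-/- muscle.

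The genotypes differed in many genes, mostly by small amounts. Of 14499 genes, 3091 were called (21.3%), 1616 higher in Mstn-/- muscle (11.1%) and 1475 lower (10.2%). The split between higher and lower depended on the scaling, with 1877 higher and 1050 lower after the arrays were shifted to the same median. The median size of a called difference was 0.27 on the log2 scale or 1.2-fold, and the median over all tested genes was -0.01. Against a minimum of 1.2-fold, 249 genes were called. Only 52 called genes differed at least 2-fold (0.359% of those tested), 23 higher and 29 lower. In 1740 genes (12%) the 6 arrays of 1 genotype did not overlap with the 6 of the other, and 1602 of these were called. Within the 12 arrays the first principal component held 40% of the variance and set the genotypes apart, with scores from -14.2 to -11.2 in Mstn-/- and from 7.27 to 17.1 in wildtype muscle. When single arrays were left out, list counts of 1 or 2 genes given here shifted by 1 at most, except for the adipocyte markers, and are not read further. Most list counts below are given with the share of members called, to be read against the 21.3% called over all tested genes (11.1% higher, 10.2% lower). Array medians of the whole study lay between 139 and 147, and a difference had a median SE of 0.0672 (log2).

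**Figure D1:**
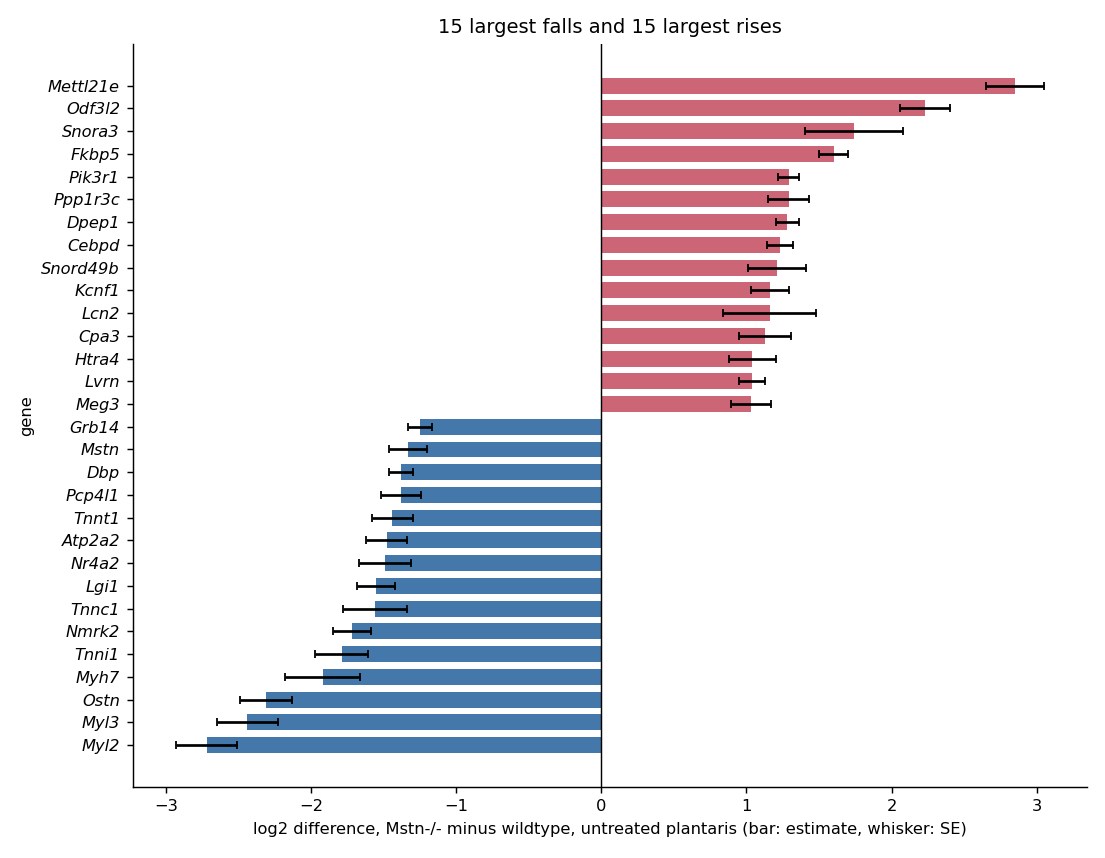
Log2 difference between Mstn-/- and wildtype untreated plantaris (x axis) for the 15 called, non-overlapping genes with the largest rise and the 15 with the largest fall, bars giving the estimate and whiskers its SE. Genes with a predicted or clone symbol were left out. Mettl21e stands at 2.85 at the top and Myl2 at -2.72 at the bottom, and 6 of the 15 falls (Myl2, Myl3, Myh7, Tnni1, Tnnc1 and Tnnt1) are contractile genes of slow fibres.

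Genes of the slow contractile apparatus led the falls. Of 14 slow-fibre genes, 12 fell in Mstn-/- muscle and none rose, against 10.2% of all tested genes called lower, and the median difference of the 14 genes was -0.94 on the log2 scale. The largest fall of any gene was in Myl2, the regulatory light chain of slow and cardiac myosin. Myl2 lay at 11.36, 11.54 and 11.62 (lowest, median and highest log2 intensity) in wildtype and at 8.09, 8.97 and 9.24 in Mstn-/- muscle. The groups were separated by a wide gap, and the difference was 6.58-fold (log2 -2.72 ± 0.21, limma adjusted p = 7.6e-10). Myl3, the essential light chain of the same myosin, went from 10.12, 10.38 and 10.85 to 7.54, 7.91 and 8.81, a 5.43-fold fall (limma adjusted p = 3.7e-09).

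The slow myosin heavy chain and the slow troponin complex fell with the light chains. Myh7, the slow heavy chain, lay at 8.98, 9.60 and 10.63 in wildtype and at 7.50, 7.76 and 8.33 in Mstn-/- muscle, a 3.80-fold fall (log2 -1.92 ± 0.26, limma adjusted p = 6.3e-06). Tnni1, the inhibitory troponin subunit of slow fibres, fell 3.46-fold (log2 -1.79 ± 0.18), from a wildtype range of 8.80 to 10.15 to 7.35 to 7.76. Tnnc1, the calcium-binding subunit, fell 2.94-fold (log2 -1.56 ± 0.22) from 8.62 to 10.22 to a range of 7.41 to 8.03. Tnnt1, the tropomyosin-binding subunit, fell 2.72-fold (log2 -1.44 ± 0.14). The arrays of the genotypes did not overlap in any of these genes. Wildtype replicates 2 and 6 were the highest wildtype arrays for Myh7 (10.42 and 10.63) and Tnni1 (9.86 and 10.15), and likewise for Tnnc1. Without both arrays 10 of the 14 slow-fibre genes were still called lower, an alternative chosen after seeing the data.

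Slow-fibre genes of the Z-disc and of oxygen storage fell by smaller amounts. Myoz2, the calcineurin-binding Z-disc protein of slow fibres, fell 1.94-fold (limma adjusted p = 1.3e-06), and the stretch-linked LIM protein gene Csrp3 fell 1.89-fold (adjusted p = 0.0013). Actn2 and Mb, which encode an alpha-actinin and myoglobin, fell 1.38-fold and 1.36-fold (adjusted p = 2.7e-06 and 1.4e-07), with groups that did not overlap. The small differences of Ankrd2 (log2 -0.50, adjusted p = 0.047) and Myh7b (log2 -0.14, adjusted p = 0.031) both lost their calls without Mstn-/- replicate 1, 4 or 6 or wildtype replicate 4, 5 or 6, Ankrd2 also without Mstn-/- replicate 3 or 5 and Myh7b without Mstn-/- replicate 2. Tpm3 (log2 -0.16, adjusted p = 0.14) and Mybpc1 (log2 -0.12, adjusted p = 0.16) did not pass. Averaged over the 14 genes, the log2 level per array ran from 10.56 to 11.07 in wildtype and from 9.60 to 9.84 in Mstn-/- muscle. Fewer slow fibres and less of this RNA per fibre cannot be told apart in whole muscle.

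The 250 bases before the RefSeq start of Myl3 and Tnnc1 are shown because both genes fell and both windows hold the MCAT motif, the letters bound by TEAD factors in muscle promoters. The sequences are from RefSeq, build GRCm38.p6, both on the plus strand, 5′ to 3′ (Myl3 at chr9:110763428-110763677 and Tnnc1 at chr14:31208062-31208311), with CATTCC or its reverse GGAATG in capitals.
Myl3: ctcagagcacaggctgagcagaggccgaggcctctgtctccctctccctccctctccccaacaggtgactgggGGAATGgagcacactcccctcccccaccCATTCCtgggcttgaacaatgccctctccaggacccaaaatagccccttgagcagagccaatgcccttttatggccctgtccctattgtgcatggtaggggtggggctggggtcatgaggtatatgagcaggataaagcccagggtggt
Tnnc1: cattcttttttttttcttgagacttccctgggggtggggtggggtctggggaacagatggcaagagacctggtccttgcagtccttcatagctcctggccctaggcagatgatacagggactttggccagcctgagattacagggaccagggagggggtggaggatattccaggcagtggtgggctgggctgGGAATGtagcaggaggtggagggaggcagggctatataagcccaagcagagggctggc
The Myl3 window has 2 matches, whose first bases lie 177 and 149 bases before the start, and the Tnnc1 window has 1, at 58 bases. Of the 14 slow-fibre genes 3 have a match on either strand (Myh7, Myl3 and Tnnc1), or 21.4%, and of all 27025 genes with a RefSeq promoter at hand, 14.4% have one. Tead1, which encodes one of the factors that bind this motif, was 1.34-fold lower in Mstn-/- muscle (log2 -0.42 ± 0.07, limma adjusted p = 1.4e-04). The motif share was not tested against that of all genes, and a link between Tead1 and the slow-fibre genes was not tested.

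**Figure D2:**
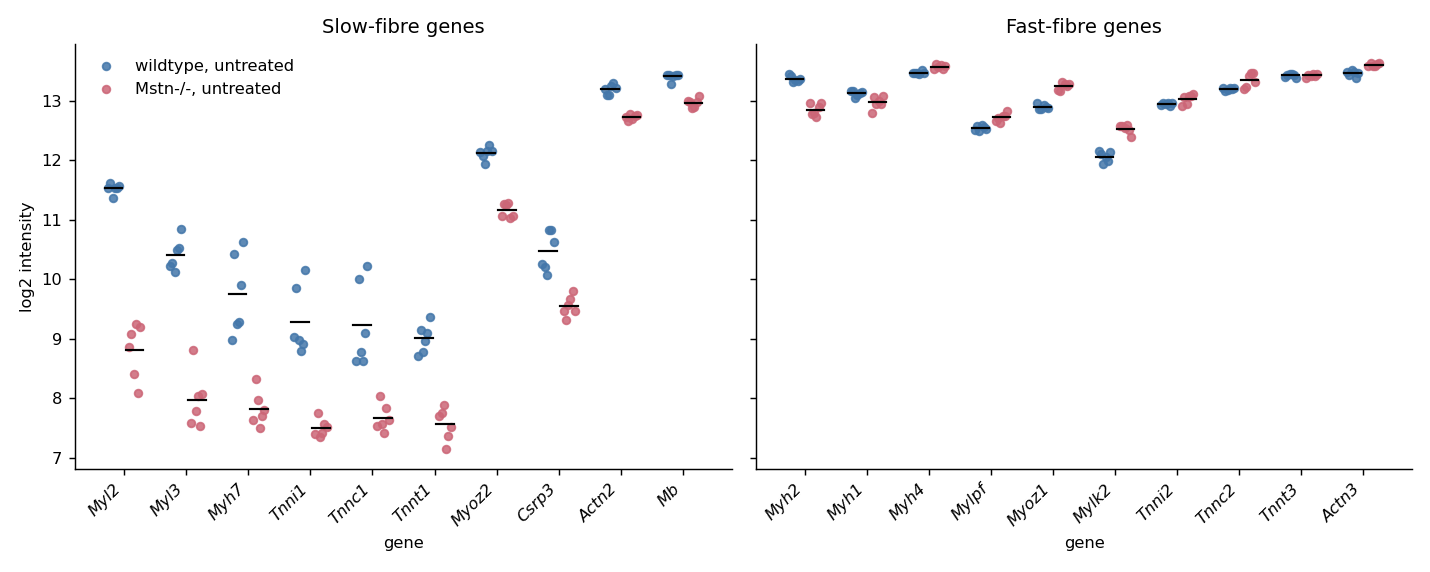
Log2 intensity (y axis) of 10 slow-fibre genes and 10 fast-fibre genes on each of the 6 untreated wildtype arrays (blue) and 6 untreated Mstn-/- arrays (red), with black bars at the group means. The Mstn-/- points lie below all wildtype points for the 10 slow-fibre genes shown. Of the slow-fibre list, Ankrd2, Myh7b, Tpm3 and Mybpc1 are not drawn, and the groups of Tpm3 and Mybpc1 overlapped. Among the fast-fibre genes Myh2 is lower and Mylk2 and Myoz1 are higher in Mstn-/- muscle. Levels of different genes are not comparable with each other.

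Fast-fibre genes moved little and not all one way. Of 15 tested, 5 rose and 2 fell (46.7% called), with a median difference of 0.10, and the count of rises was 3 without any one array except Mstn-/- replicates 1 and 2. Called or not, 11 of the 15 differences were above 0 and 4 below. Over all 14499 tested genes 6627 were above 0 and 7872 below. The mean log2 level of the 15 genes was high for these arrays, 13.14 to 13.19 in wildtype and 13.19 to 13.28 in Mstn-/- muscle. Whether such high intensities limit the size of their differences was not tested. Myh2, the heavy chain of the fast oxidative IIA fibres, fell 1.43-fold (limma adjusted p = 4.3e-06), from 13.31, 13.35 and 13.45 in wildtype to 12.72, 12.85 and 12.97. Its groups did not overlap. Myh4, the heavy chain of the fast glycolytic IIB fibres, lay at 13.45 to 13.51 in wildtype and 13.54 to 13.61 in Mstn-/- muscle and did not pass the test although these ranges do not overlap (log2 0.10 ± 0.10, adjusted p = 0.53). The spread in the test was estimated over all 24 arrays, the overloaded ones included. Myh1 of the intermediate IIX fibres was at log2 -0.15 (adjusted p = 0.049), a call lost without any one of 9 single arrays (all but Mstn-/- replicates 2 and 6 and wildtype replicate 3), with values from -0.17 to -0.11. The fast-fibre genes that rose with separated groups and kept their call without any single array were Mylk2, the skeletal myosin light chain kinase (1.38-fold, adjusted p = 0.012), Myoz1, the fast counterpart of Myoz2 (1.27-fold, adjusted p = 0.011), and the fast regulatory light chain Mylpf (1.13-fold, adjusted p = 0.012).

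Calcium-handling genes moved both ways, the slow-fibre pump and calsequestrin downward. Of 26 tested genes 8 fell (30.8%) and 7 rose (26.9%), with a median of -0.02, and the count of rises was 3 without wildtype replicates 2 and 6. Atp2a2, the calcium pump of slow fibres and heart, lay at 10.76, 11.18 and 11.62 in wildtype and at 9.43, 9.62 and 10.12 in Mstn-/- muscle, a 2.78-fold fall (limma adjusted p = 1.2e-08). Casq2, the calsequestrin of slow fibres and heart, fell 2.32-fold from a range of 9.24 to 9.61 to a range of 8.14 to 8.36 (adjusted p = 3.0e-07). Neither gene's groups overlapped. Mrln, which encodes the calcium pump inhibitor myoregulin, rose 1.39-fold (adjusted p = 1.3e-04), and Pvalb, the calcium buffer parvalbumin of fast fibres, rose 1.2-fold (adjusted p = 0.0065). The fast calsequestrin Casq1 rose 1.13-fold (adjusted p = 0.024), a call lost without wildtype replicate 5, and Cacnb1, a subunit of the voltage sensor, fell 1.34-fold (adjusted p = 4.9e-04).

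Sarcomere and Z-disc genes were lower more often than higher. Of 30 tested genes 11 fell (36.7%) and 2 rose (6.67%), with a median of -0.13. Pdlim1, a LIM protein that binds alpha-actinin, fell 2.14-fold, from a median of 11.85 and a lowest array of 11.80 in wildtype to 10.67, 10.76 and 10.89 (limma adjusted p = 5.2e-10). The leiomodins Lmod2 and Lmod3, which nucleate actin filaments, fell 2.08-fold and 1.73-fold (adjusted p = 7.5e-09 and 6.9e-08). The arrays of the genotypes did not overlap for these 3 genes. Fhl3, a LIM-domain protein gene, rose 1.40-fold (adjusted p = 0.012).

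In the myostatin pathway the receptors Tgfbr1 and Acvr2a were higher, the transcription factor Smad3 was lower, and the list as a whole was balanced. Of 30 tested genes of the myostatin, activin and TGF-beta pathway, Mstn included, 6 rose (20%) and 5 fell (16.7%), with a median of 0.01, and the count of falls was 3 without Mstn-/- replicate 2 or without wildtype replicates 2 and 6 together. Tgfbr1, a type I receptor that myostatin can use, lay at 9.02, 9.12 and 9.28 in wildtype and at 9.67, 9.75 and 9.90 in Mstn-/- muscle, a 1.55-fold rise (limma adjusted p = 5.8e-09). Acvr2a, a type II receptor for activins and myostatin, rose 1.53-fold, from 8.86, 8.94 and 9.29 to 9.49, 9.63 and 9.66 (adjusted p = 1.8e-07). Both receptors were higher on every Mstn-/- array than on any wildtype array. The other type II receptor Acvr2b (log2 0.03 ± 0.06, adjusted p = 0.79) and the type I receptor Acvr1b (log2 0.19 ± 0.09, adjusted p = 0.12) did not pass.

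Ligands, inhibitors and Smads of the pathway gave a mixed picture. Smad3 fell 1.51-fold, from 9.92, 10.04 and 10.14 to 9.27, 9.50 and 9.53 (limma adjusted p = 7.8e-08), while Smad2 was at log2 -0.09 ± 0.07 (adjusted p = 0.46). The groups were separate for Smad3 and overlapped for Smad2. Fst, which encodes follistatin, fell 1.35-fold (adjusted p = 0.0010), and the inhibitory Smad7 rose 1.21-fold (adjusted p = 0.0053). Inha, the inhibin alpha chain that turns activin subunits into inhibins, rose 1.32-fold (adjusted p = 9.2e-05), and the activin subunit Inhba did not pass (log2 0.04, adjusted p = 0.78).

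Among growth signalling and protein breakdown genes more were called higher than lower in Mstn-/- muscle, and the majority of either list was not called higher. Of 25 tested genes of IGF, insulin and Akt signalling 10 rose (40%) and 2 fell (8.0%), with a median of 0.13. The count of rises was 6 without wildtype replicate 6, 5 without wildtype replicates 2 and 6 together and 6 after quantile normalization. Pik3r1, the regulatory subunit of phosphoinositide 3-kinase, lay at 10.14, 10.27 and 10.39 in wildtype and at 11.35, 11.57 and 11.71 in Mstn-/- muscle, a 2.45-fold rise (limma adjusted p = 2.2e-12). The translation repressor gene Eif4ebp1 rose 1.36-fold and the kinase gene Akt2 1.22-fold (adjusted p = 6.4e-07 and 4.6e-04). Both genes' groups were separate. The growth factor gene Igf1 fell 1.49-fold (adjusted p = 0.0045) and the insulin receptor substrate Irs2 1.30-fold (adjusted p = 8.4e-04), each with overlapping arrays. Grb14, an adaptor that inhibits the insulin receptor, fell 2.38-fold (adjusted p = 1.7e-11).

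Of 22 tested genes of the atrophy programme, which marks proteins for breakdown under the control of FoxO factors, 9 rose (40.9%) and none fell (median 0.14), with 5 rises without wildtype replicates 2 and 6. Trim63, the ubiquitin ligase MuRF1, lay at 10.03, 10.23 and 10.45 in wildtype and at 10.89, 11.03 and 11.12 in Mstn-/- muscle, a 1.74-fold rise (limma adjusted p = 3.4e-07). Fbxo32, the ligase atrogin-1, rose 1.71-fold, from 11.32, 11.66 and 11.80 to 12.17, 12.37 and 12.60 (adjusted p = 7.4e-05). Trim54, a relative of Trim63, rose 1.55-fold (adjusted p = 7.4e-06). For all 3 ligases the lowest Mstn-/- array was above the highest wildtype array.

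Of 29 tested genes of fatty acid uptake, storage and oxidation 17 fell in untreated Mstn-/- muscle (58.6%) and none rose, with a median of -0.24. The falls were small, and 3 of the 29 genes were called lower against a minimum of 1.2-fold. Ucp3, a mitochondrial carrier protein induced by fatty acids, fell 2.06-fold, from 9.95, 10.34 and 10.52 to 8.45, 9.35 and 9.84 (limma adjusted p = 1.2e-04). Lpl, the lipase that frees fatty acids from circulating lipoproteins, fell 1.56-fold, from a range of 11.77 to 12.10 to a range of 11.18 to 11.35 (adjusted p = 2.3e-06). Neither gene's arrays overlapped. Pdk4, the kinase that shuts off pyruvate oxidation, fell 1.5-fold (adjusted p = 5.0e-04), the lipid droplet protein gene Plin2 1.44-fold (adjusted p = 3.0e-06) and the hormone-sensitive lipase gene Lipe 1.42-fold (adjusted p = 2.7e-05). The fatty acid transporter Slc27a1 and the beta-oxidation enzymes Hadh and Acadl fell 1.37-fold, 1.34-fold and 1.33-fold.

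Some regulators of oxidative metabolism and some mitochondrial genes were lower, and the larger part of each of these lists was not called. Of 21 genes of the PGC-1, PPAR and ERR group 6 fell (28.6%) and 2 rose (9.52%), with a median of -0.10. Esrrg, an oestrogen-related receptor linked to oxidative fibres, fell 1.71-fold from a range of 9.50 to 9.87 to a range of 8.71 to 8.97 (limma adjusted p = 2.6e-04). The coactivator Ppargc1b fell 1.5-fold (adjusted p = 2.0e-06), the fatty acid sensor Ppara 1.39-fold (adjusted p = 0.0035) and Vegfa, the angiogenic growth factor, 1.51-fold (adjusted p = 2.9e-06), while Ppard rose 1.17-fold (adjusted p = 0.0012). None of these 5 genes had overlapping groups. Of 22 citric acid cycle genes 7 fell (31.8%) and none rose (median -0.15), a count that was 3 without wildtype replicate 5 and 4 without Mstn-/- replicate 1 or wildtype replicate 1 or 4. It was 12 in a fit of the 12 untreated arrays alone and 4 with the arrays at the same median. Idh2, the mitochondrial NADP-dependent isocitrate dehydrogenase, fell 1.95-fold, from 11.91, 11.98 and 12.16 to a median of 11.04 and a highest array of 11.11 (adjusted p = 1.6e-06). Ogdh and Pdk1 fell 1.21-fold and 1.23-fold. Of 45 respiratory chain genes 11 fell (24.4%, against 10.2% of all tested genes) and 1 rose (2.22%, against 11.1%), with a median of -0.10. Both directions together, 26.7% were called, close to the 21.3% over all tested genes. The count of falls was 7 without wildtype replicates 2 and 6, and none passed against a minimum of 1.2-fold. The 3 falls with the smallest adjusted p were Sdhc of complex II, Ndufs8 of complex I and Cyc1 of complex III, at 1.39-fold, 1.31-fold and 1.30-fold.

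Of 22 glycolysis genes 5 rose (22.7%, against 11.1% of all tested genes) and 1 fell (4.55%, against 10.2%), with a median of 0.01. Both directions together, 27.3% were called, near the 21.3% over all tested genes, and 3 genes rose without wildtype replicates 2 and 6. Slc16a3, the lactate exporter of glycolytic fibres, rose 1.85-fold, from 10.79, 10.88 and 11.03 to 11.67, 11.78 and 11.90 (limma adjusted p = 1.5e-07). Ldhb, the lactate dehydrogenase subunit of oxidative tissue, fell 2.15-fold, from 11.60, 11.67 and 11.81 to 10.42, 10.57 and 10.82 (adjusted p = 1.3e-05). Both were separated between the genotypes. The regulatory enzyme gene Pfkfb4 rose 1.35-fold (adjusted p = 4.7e-04). Ppp1r3c, which targets protein phosphatase 1 to glycogen, rose 2.45-fold, from 10.34, 10.62 and 10.67 to 11.54, 11.92 and 12.01 (adjusted p = 2.9e-07), 1 of 4 rises and 1 fall among 15 glycogen genes (33.3% called). The carbonic anhydrase gene Car14 rose 2.00-fold (adjusted p = 1.7e-05) and the AMP deaminase gene Ampd3 fell 1.80-fold (adjusted p = 5.2e-10).

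Of 30 tested genes of amino acid and polyamine metabolism 12 rose (40%), 2 fell (6.67%) and 16 were not called, with a median of 0.07. Glul, glutamine synthetase, lay at 11.42, 11.46 and 11.54 in wildtype and at 12.39, 12.47 and 12.59 in Mstn-/- muscle, a 2.03-fold rise (limma adjusted p = 5.2e-10). The cationic amino acid transporter Slc7a2 rose 1.84-fold (adjusted p = 5.2e-10) and the branched-chain amino acid transporter Slc43a1 1.92-fold (adjusted p = 1.1e-08). Every Mstn-/- array was above every wildtype array for these 3 genes. Odc1, the first enzyme of polyamine synthesis, which lies outside the naming rule and was chosen after its values were seen, rose 2.04-fold (adjusted p = 1.6e-06).

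The largest rise of any gene with separate groups was in Mettl21e, a muscle protein lysine methyltransferase. It lay at 6.98, 7.19 and 7.30 in wildtype and at 9.36, 10.06 and 10.49 in Mstn-/- muscle, a 7.22-fold difference (log2 2.85 ± 0.20, limma adjusted p = 2.7e-10). Mettl21e lies on chromosome 1, as does Mstn, 16 tested genes away from it. Of 14 genes in the list of muscle methyltransferases and Mss51, Mettl21a (1.25-fold, adjusted p = 2.2e-04) and Mss51 (1.56-fold, adjusted p = 0.0031) rose too, and none fell. The 21.4% called were all rises, against 21.3% called and 11.1% higher over all tested genes. Odf3l2, a relative of a sperm tail protein, rose 4.70-fold, from 8.28, 8.63 and 8.75 to 10.11, 10.86 and 11.47 (adjusted p = 5.2e-10).

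Other large rises came from genes of varied roles. The small nucleolar RNAs Snora3 and Snord49b, which guide modification of ribosomal RNA, rose 3.34-fold (log2 1.74 ± 0.34, limma adjusted p = 4.9e-04) and 2.32-fold (log2 1.21 ± 0.20, adjusted p = 1.0e-04). The dipeptidase gene Dpep1 rose 2.43-fold with little spread, from a range of 8.43 to 8.66 to a range of 9.73 to 9.91. The transcription factor gene Cebpd rose 2.34-fold, the potassium channel subunit Kcnf1 2.24-fold and the secreted lipocalin Lcn2 2.23-fold. The serine protease gene Htra4 and the aminopeptidase gene Lvrn each rose 2.06-fold. The groups did not overlap for any of these genes, which the rule for naming the largest rises required. Lcn2 was the least precise of these protein-coding genes, with an SE of 0.32 on a log2 difference of 1.16 (limma adjusted p = 0.0099). Snora3 had a still larger SE of 0.34, and its groups were barely apart. Its highest wildtype array was at 9.68 and its lowest Mstn-/- array at 9.72. The wildtype means of Kcnf1 (6.64) and Lvrn (6.66) lay close to the level of the filter (6.63), so the size of their rises is uncertain. Of 18 imprinted growth genes 8 rose (44.4%) and 1 fell (median 0.16), with the long RNA Meg3 2.05-fold, the zinc finger gene Peg3 1.71-fold and the amino acid transporter Slc38a4 1.61-fold higher and Mest 1.5-fold lower.

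Among factors that muscle secretes, 5 of 20 fell (25%) and 1 rose (median -0.15). Ostn, which encodes the peptide musclin, lay at 9.08, 9.39 and 10.19 in wildtype and at 6.98, 7.23 and 7.39 in Mstn-/- muscle, a 4.94-fold fall (log2 -2.31 ± 0.18, limma adjusted p = 1.2e-09). Angptl4, an inhibitor of lipoprotein lipase, fell 1.65-fold and the growth factor gene Fgf1 1.52-fold (adjusted p = 1.5e-06 and 1.4e-05). None of these 3 genes had overlapping groups. Nmrk2, the nicotinamide riboside kinase of muscle, fell 3.30-fold, from 9.27, 9.64 and 10.09 to 7.71, 7.91 and 8.22 (adjusted p = 9.2e-10). Pcp4l1 fell 2.61-fold (adjusted p = 1.2e-07), and the secreted synaptic protein gene Lgi1 fell 2.93-fold to a Mstn-/- mean below the level of the filter, so the size of that fall is uncertain. Of 25 redox genes 9 rose (36%) and 5 fell (20%), 3 of them without wildtype replicates 2 and 6 (median 0.06), with the stress sensor Keap1 1.30-fold higher and the antioxidant enzymes Gpx3 and Cat 1.91-fold and 1.41-fold lower.

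**Figure D3:**
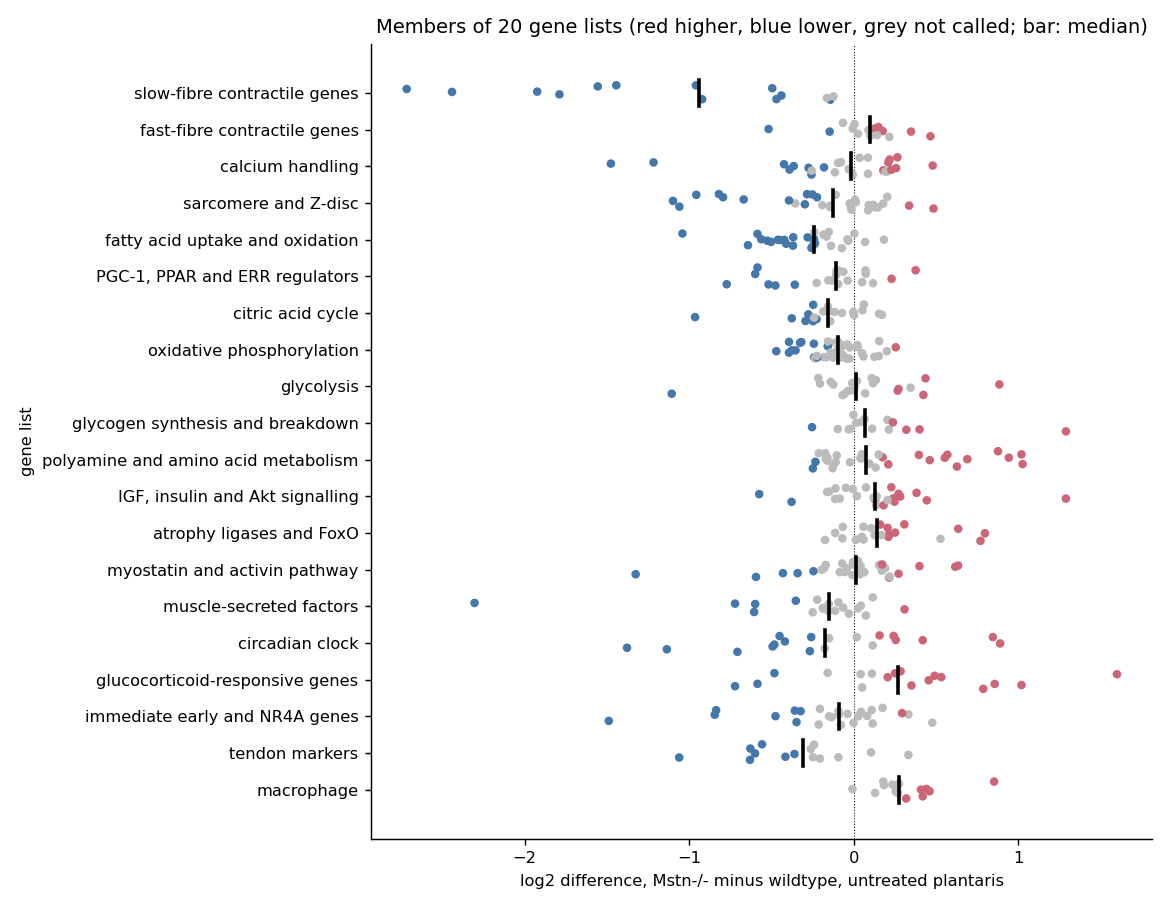
Log2 difference between Mstn-/- and wildtype untreated plantaris (x axis) for each tested member of 20 gene lists (y axis), red where called higher, blue where called lower and grey where not called, with a black bar at the list's median. The slow-fibre list has its median at -0.94 and no red point, the fatty acid list has its median at -0.24 and no red point, and the atrophy list has no blue point.

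Genes of the circadian clock differed between the genotypes in both directions. The circadian clock runs in muscle as in other tissues: ARNTL (BMAL1) and CLOCK activate the Per and Cry repressors and the output factor Dbp through E-box letters, and NFIL3 and DBP act on shared D-box letters in opposite senses. Of 19 tested clock genes 9 fell (47.4%) and 6 rose (31.6%), with a median of -0.18. Dbp lay at 9.65, 9.79 and 9.85 in wildtype and at 8.24, 8.37 and 8.63 in Mstn-/- muscle, a 2.60-fold fall (limma adjusted p = 4.5e-12). Ciart, a repressor of the loop, fell 2.20-fold, from 8.17, 8.30 and 8.52 to 6.46, 7.23 and 7.74 (adjusted p = 2.5e-05). Per3 and Per2 fell 1.63-fold and 1.34-fold (adjusted p = 2.0e-07 and 7.5e-07). None of these 4 genes had overlapping groups. The other core repressors were not uniform: Per1 fell (log2 -0.48, adjusted p = 0.0025) while Cry1 (log2 0.26, adjusted p = 1.7e-04) and Cry2 (log2 0.16, adjusted p = 0.041) rose. All 3 were chosen after their values were seen. Cry1 and Cry2 lie outside the naming rule, and Per1 enters it only through the glucocorticoid-responsive list. The Cry2 call was lost without Mstn-/- replicate 1, 4, 5 or 6 or wildtype replicate 2, 5 or 6.

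Arntl, Nfil3 and Rora were the most firmly higher of the clock genes. Arntl lay at 8.09, 8.27 and 8.44 in wildtype and at 8.95, 9.12 and 9.36 in Mstn-/- muscle, a 1.85-fold rise (limma adjusted p = 7.7e-09). Nfil3 rose 1.80-fold, from 8.44, 8.57 and 8.64 to 9.17, 9.40 and 9.65 (adjusted p = 2.0e-07), and Rora, an activator of Arntl, rose 1.34-fold (adjusted p = 3.1e-06). Under overload, on other arrays, 7 of the 9 clock genes that were lower without overload were called higher in Mstn-/- muscle, and none was called lower. Of all 1475 genes lower without overload, 153 (10.4%) were called higher under overload and 570 (38.6%) lower again. The 9 clock genes were picked by their untreated fall, and no test of them against all such genes was made. Under overload Dbp was 0.89 higher on the log2 scale in Mstn-/- muscle, Ciart 1.18 higher and Arntl lower, at -0.91. The time of day of sampling is not stated, and a genotype difference and a difference in sampling time between the groups cannot be told apart.

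The 250 bases before the RefSeq start of Ciart and Per3 are shown because both genes changed sides between the loading states and their windows hold clock motifs. The sequences are from RefSeq, build GRCm38.p6, both on the minus strand, 5′ to 3′ (Ciart at chr3:95882229-95882478 and Per3 at chr4:151044666-151044915). Capitals mark the E-box CACGTG in Ciart, which reads the same on both strands, and the D-box TTATGNAA, searched on both strands, in Per3.
Ciart: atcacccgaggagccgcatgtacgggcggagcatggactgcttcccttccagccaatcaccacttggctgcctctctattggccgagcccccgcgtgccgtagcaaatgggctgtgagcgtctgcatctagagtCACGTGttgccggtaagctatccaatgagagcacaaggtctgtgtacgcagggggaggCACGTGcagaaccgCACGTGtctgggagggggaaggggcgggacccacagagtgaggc
Per3: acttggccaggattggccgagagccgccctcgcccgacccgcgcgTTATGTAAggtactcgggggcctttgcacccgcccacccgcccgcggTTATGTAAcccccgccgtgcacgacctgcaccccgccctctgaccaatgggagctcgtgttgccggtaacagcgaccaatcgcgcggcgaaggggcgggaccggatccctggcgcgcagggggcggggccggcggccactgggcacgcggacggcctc
Ciart has 3 E-boxes, with first bases 116, 58 and 44 bases before the start, and Per3 has 2 D-boxes, at 205 and 158 bases. Of 17 clock genes with a RefSeq promoter at hand, 5 have a CACGTG (29.4%), against 6.86% of all genes in it, and 2 have the D-box letters (11.8%), against 3.63%. Matches of the 3 motifs searched did not overlap each other in the 4 windows shown.

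**Figure D4:**
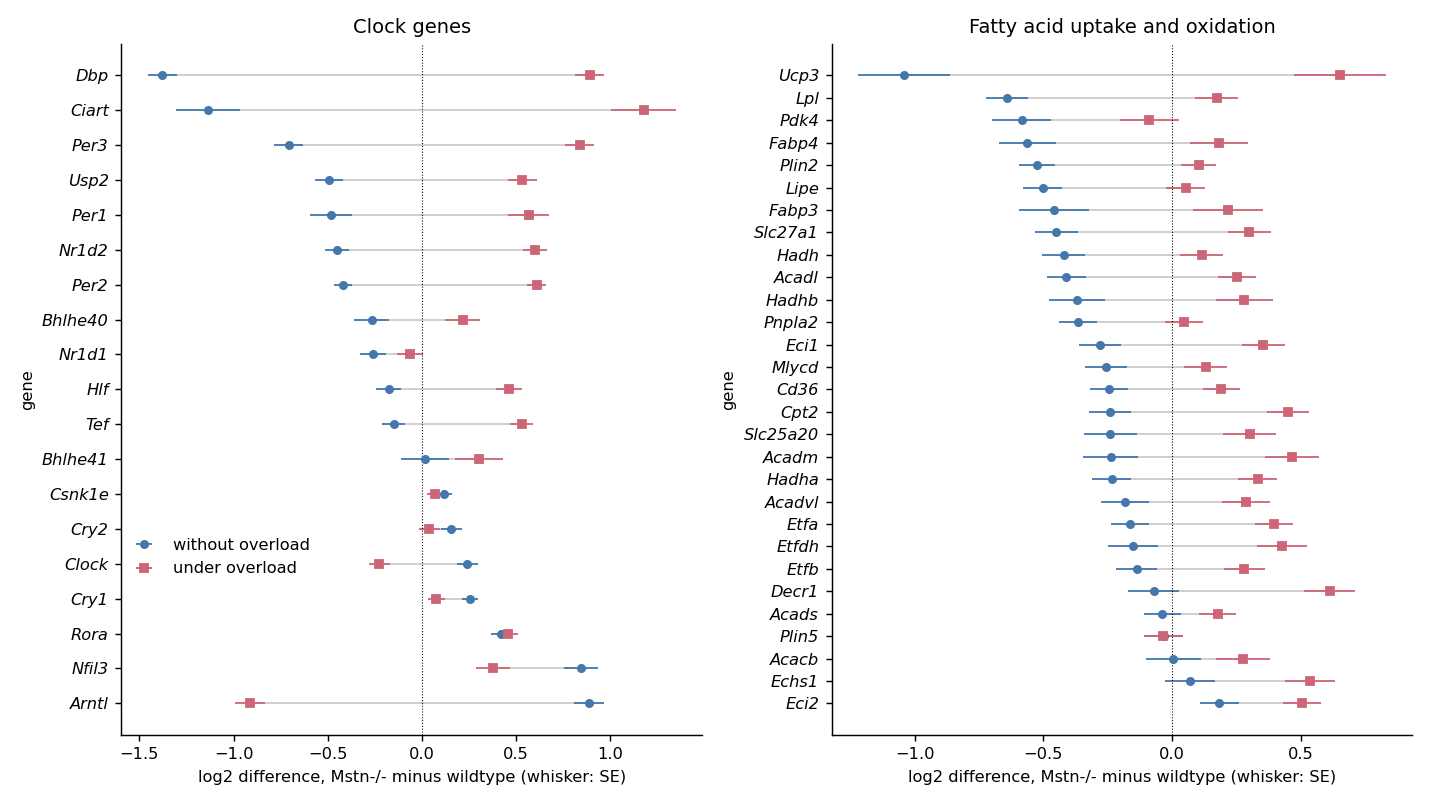
Log2 difference between Mstn-/- and wildtype muscle (x axis, whiskers SE) without overload (blue circles) and under overload (red squares) for 19 clock genes (left) and 29 fatty acid genes (right), with a grey line joining the values of a gene. Dbp moves from -1.38 to 0.89 and Arntl from 0.89 to -0.91, and the median of the fatty acid genes moves from -0.24 to 0.28.

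Of 18 tested glucocorticoid-responsive genes 11 rose (61.1%), 3 fell (16.7%) and 4 were not called, with a median of 0.27. Fkbp5, a chaperone of the glucocorticoid receptor that the hormone induces, lay at 7.79, 8.30 and 8.48 in wildtype and at 9.63, 9.83 and 9.89 in Mstn-/- muscle, a 3.03-fold rise (log2 1.60 ± 0.10, limma adjusted p = 3.5e-11). Glul, given above, and Sesn1 (1.41-fold, adjusted p = 3.0e-05) were the next rises by adjusted p. The 3 that fell, Angptl4, Pdk4 and Per1, also stand in the secreted, fatty acid and clock lists. Of 25 immediate early and NR4A genes 7 fell (28%) and 1 rose (median -0.09), with the nuclear receptors Nr4a2 and Nr4a1 2.81-fold and 1.80-fold lower (adjusted p = 9.6e-07 and 2.4e-04) and Fosl2 1.39-fold lower.

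Of the myogenic regulators, Myod1 and Myf6 were each 1.46-fold higher in Mstn-/- muscle (limma adjusted p = 1.4e-04 and 5.5e-05). Within the list of satellite cell and myogenic genes 5 of 25 rose (20%) and 5 fell (20%), with a median of -0.02. The 9 markers of the muscle fibre itself had a list level of 13.38 to 13.40 in wildtype and 13.37 to 13.47 in Mstn-/- muscle, so the labelled tissue carried its markers on all 12 arrays.

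Markers of cells other than fibres also differed. Of 8 tenocyte markers 7 fell (87.5%) and none rose (median -0.58), and their mean log2 level ran from 9.23 to 10.12 in wildtype and from 9.07 to 9.54 in Mstn-/- muscle. Wildtype replicate 4 was the low wildtype array, the other wildtype arrays starting at 9.87, so the groups overlapped through that array. The tendon matrix genes Chad and Fmod fell 2.09-fold and 1.55-fold and the tendon transcription factor Scx 1.33-fold (limma adjusted p = 1.1e-04, 5.8e-04 and 0.0014). Of 17 interstitial collagens 1 was called lower and none higher (5.88% called, median -0.07). Of 37 matrix proteoglycans and glycoproteins 9 fell (24.3%) and 2 rose, and without wildtype replicate 4 the count of falls was 14. Of 17 basement membrane genes 4 rose and none fell (23.5%, against 11.1% higher and 21.3% called over all tested genes). The laminin chains Lama2 and Lamc1 were each 1.29-fold higher (limma adjusted p = 1.3e-04 and 1.7e-04).

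Some markers of macrophages, mast cells and fibroblasts were higher in Mstn-/- muscle. Of 14 macrophage markers 6 rose (42.9%) and none fell (median 0.27), a count that was 3 without Mstn-/- replicate 1 or 6 or wildtype replicate 4, 5 or 6, and their level ran from 7.51 to 7.91 in wildtype and from 7.93 to 8.17 in Mstn-/- muscle. Lyz2, the macrophage lysozyme, rose 1.81-fold, from 9.58, 9.80 and 10.03 to 10.43, 10.62 and 10.89 (limma adjusted p = 2.9e-06), and Cd163 and Csf1r rose 1.38-fold and 1.34-fold. Of 4 mast cell markers 3 rose, with the carboxypeptidase gene Cpa3 2.19-fold and the proteases Tpsb2 and Mcpt4 1.39-fold and 1.42-fold higher. Pdgfra, which marks fibro-adipogenic progenitors, rose 1.44-fold (limma adjusted p = 2.0e-05) and Dpp4 1.40-fold, 2 of 3 rises among 11 markers of these cells (27.3% called). The median of the 11 was 0.05, with 5 of them below 0. Their level overlapped between the genotypes, from 9.67 to 10.12 in wildtype and from 9.87 to 10.24 in Mstn-/- muscle. None of 7 Schwann cell markers, 2 neutrophil markers, 6 lymphocyte markers or 8 proliferation markers was called. Of 7 adipocyte markers 1 was called lower (median of the 7 at -0.45), and the count was 4 without Mstn-/- replicate 1 and 5, 3 and 2 without wildtype replicate 1, 4 and 5. The adipocyte level ran from 8.71 to 9.83 in wildtype, highest on replicates 2 and 3, and from 8.38 to 9.34 in Mstn-/- muscle. Of 12 endothelial markers 5 fell (41.7%) and 1 rose, with 3 falls without Mstn-/- replicate 1 or wildtype replicate 5 or with the arrays at the same median. The part of these cell types in the differences of the other genes was not tested.

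**Figure D5:**
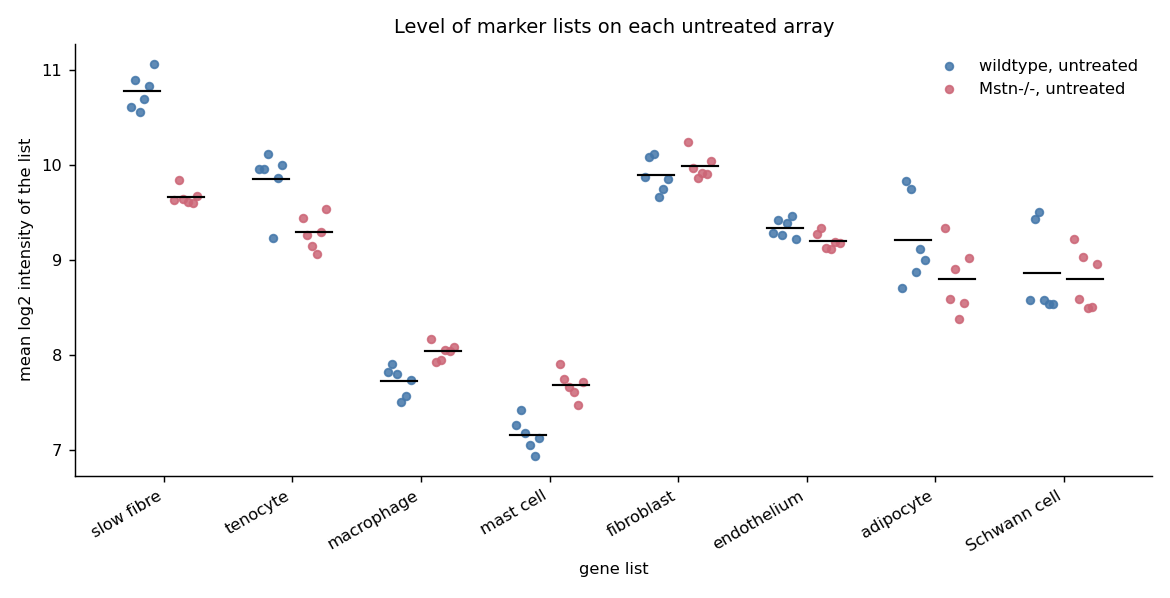
Mean log2 intensity of 8 marker lists (y axis) on each untreated wildtype array (blue) and Mstn-/- array (red), black bars giving the group means. The slow-fibre level is 9.60 to 9.84 in Mstn-/- muscle against 10.56 to 11.07 in wildtype, the tenocyte level is lower in Mstn-/- muscle apart from 1 low wildtype array, and the macrophage level is higher, and levels of different lists are not comparable with each other.

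The 12 overloaded arrays, which share no sample with the untreated ones, gave the same genotype difference for some genes and not for others. Under overload 5293 genes were called between the genotypes (36.5%), 2540 higher in Mstn-/- muscle (17.5%) and 2753 lower (19%). Of the 1616 genes higher in untreated Mstn-/- muscle 826 (51.1%) were called higher under overload too, 93 (5.75%) were called lower and 697 (43.1%) were not called. Of the 1475 lower genes 570 (38.6%) were called lower again, 153 (10.4%) were called higher and 752 (51.0%) were not called. Of the 12 slow-fibre genes called lower without overload all 12 were called lower under overload, with Myl2 at log2 -2.50, Myh7 at -2.64 and Tnnc1 at -1.90. Mettl21e was again higher, at log2 2.47 (limma adjusted p = 2.7e-09).

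The difference between the 2 genotype differences was tested as an interaction, which uses the untreated arrays again, and 2516 genes were called (17.4%), 1293 positive (8.92%) and 1223 negative (8.44%). Of the 17 fatty acid genes that were lower in untreated Mstn-/- muscle none was called lower under overload and 8 were called higher, and all 17 had a called positive interaction. Genes chosen for being lower without overload tend to a positive interaction by that choice, and of all 1475 such genes 478 (32.4%) had one. No test of the fatty acid genes against these was made. The median genotype difference of the 29 fatty acid genes was -0.24 without and 0.28 under overload, of the 22 citric acid cycle genes -0.15 and 0.34, and of the 45 respiratory chain genes -0.10 and 0.28. By the naming rule the largest positive interactions were in Ciart (2.31), Dbp (2.27), Ostn (1.73), Ucp3 (1.69) and the kinase gene Mylk4 (1.68). The largest negative ones were in the chemokine gene Cxcl13 (-1.99), Arntl (-1.80), the matricellular gene Ccn3 (-1.64), the proteoglycan gene Acan (-1.45) and Meg3 (-1.33). Cxcl13 and Acan have at least 1 group mean below the level of the filter, so the size of their values is uncertain, and the call of Ccn3 between untreated groups (log2 0.61, limma adjusted p = 0.023) was lost without Mstn-/- replicate 1 or wildtype replicate 4, 5 or 6, with values from 0.52 to 0.84 when single arrays were left out. Pik3r1 and Nmrk2, changed 2.45-fold and 3.30-fold without overload, were at log2 0.05 (adjusted p = 0.59) and -0.20 (adjusted p = 0.26) under overload, with called interactions of -1.24 and 1.52.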

How the data were processed

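The authors deposited linear intensities of 34760 probe sets from 24 arrays, made with RMA per the submitters' processing notes (no version is named). The planned design assumed log2 values, so log2 was taken of the deposited intensities, which ran from 4.72 to 25588.9. Genes were named by the platform annotation (1321 probe sets had several symbols and 11799 none). Of 19937 genes 19855 matched RefSeq by Entrez number.

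All 4 groups of 6 arrays were fitted together with limma 3.58.1 in R 4.3.3 (20 residual degrees of freedom), and p-values were adjusted by Benjamini-Hochberg over all tested genes. The script was tested on simulated data. The labels call the 6 arrays of a group biological replicates from 6 mice. Named genes were Mstn, the 15 largest rises and falls without overlap, up to 3 rises and 3 falls per list by adjusted p, any member of the fibre, calcium, myostatin, secreted, fatty acid and PGC-1 lists, and 5 interactions in each direction. Predicted and clone symbols (Gm or LOC with digits, ending in Rik, or clone names) were left out of the largest rises, falls and interactions. The members and gene lists were chosen with earlier results of these data known.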

Additional observations from a re-analysis of the deposited data

Results flagged for a closer look

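In 18 of the 278 sets of 6 arrays tested (139 genes, 2 genotypes), 1 array stood apart from the other 5 by more than Dixon's critical value for the 95% level. Chance gives about 1 in 20 such sets. Wildtype replicate 5 stood apart as the lowest array of its genotype in log2 intensity for Odf3l2 8.28. Wildtype replicate 3 stood apart as the lowest array of its genotype in log2 intensity for Myl2 11.36 and Mb 13.29. Mstn-/- replicate 1 stood apart as the highest array of its genotype in log2 intensity for Lmod2 10.26, Smad2 8.27 and Lamc1 10.36. Wildtype replicate 1 stood apart as the highest array of its genotype in log2 intensity for Acvr2a 9.29, Esrrg 9.87 and Mettl21a 7.33. Wildtype replicate 6 stood apart as the lowest array of its genotype in log2 intensity for Inha 7.54. Mstn-/- replicate 2 stood apart as the lowest array of its genotype in log2 intensity for Smad7 7.61. Wildtype replicate 5 stood apart as the highest array of its genotype in log2 intensity for Lpl 12.10. Wildtype replicate 4 stood apart as the lowest array of its genotype in log2 intensity for Fgf1 9.39, Chad 10.42 and Fmod 11.15. Wildtype replicate 3 stood apart as the highest array of its genotype in log2 intensity for Fosl2 9.48. Mstn-/- replicate 2 stood apart as the highest array of its genotype in log2 intensity for Tead1 11.32. Wildtype replicate 2 stood apart as the highest array of its genotype in log2 intensity for Ccn3 9.87.

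For 85 of 139 named genes the genotype difference under overload departed from that without overload in the interaction test (limma adjusted p under 0.05). Over all tested genes 17.4% were called in it. Many named genes were chosen by their untreated differences, which enter the interaction, and some by the interaction itself. A high count was likely from that choice alone, so the count is not read against the 17.4%. Values here are the genotype difference under overload minus the one without, on the log2 scale. The positive values of at least 1 were Ciart 2.31, Dbp 2.27, Ostn 1.73, Ucp3 1.69, Mylk4 1.68, Per3 1.55, Nmrk2 1.52, Nr4a1 1.42, Myl3 1.31 and Mstn 1.18. They went on with Lmod2 1.13, Nr4a2 1.09, Ppara 1.08, Per1 1.05, Per2 1.03, Grb14 1.02 and Lgi1 1.00. Positive values from 0.6 up to 1 were Pdlim1 0.92, Mss51 0.89, Irs2 0.84, Myh4 0.82, Lpl 0.82, Ldhb 0.81, Idh2 0.77, Slc27a1 0.75, Pvalb 0.73 and Fgf1 0.71. They went on with Atp2a2 0.67, Pcp4l1 0.66, Acadl 0.66, Lmod3 0.64, Plin2 0.63 and Ampd3 0.63. Smaller positive values were Sdhc 0.58, Acvr1b 0.57, Casq2 0.56, Lipe 0.55, Cacnb1 0.54, Myoz1 0.54, Hadh 0.54, Gpx3 0.53, Pdk4 0.50 and Smad3 0.49. They went on with Vegfa 0.46, Ppargc1b 0.41, Cyc1 0.35, Ndufs8 0.33, Casq1 0.32 and Pdk1 0.31. The negative values of size 1 or more were Cxcl13 -1.99, Arntl -1.80, Ccn3 -1.64, Acan -1.45, Lcn2 -1.33, Meg3 -1.33, Odf3l2 -1.30, Pik3r1 -1.24, Cpa3 -1.14 and Lyz2 -1.09. Negative values of size 0.6 up to 1 were Htra4 -0.90, Kcnf1 -0.87, Odc1 -0.72, Lamc1 -0.68, Myod1 -0.65, Slc7a2 -0.64, Pdgfra -0.64, Csf1r -0.64, Peg3 -0.63 and Ppp1r3c -0.61. Smaller negative values were Dpep1 -0.58, Fbxo32 -0.58, Fkbp5 -0.57, Tgfbr1 -0.55, Cebpd -0.53, Acvr2a -0.49, Nfil3 -0.47, Lvrn -0.45, Tpsb2 -0.45 and Scx -0.45. They went on with Eif4ebp1 -0.43, Slc43a1 -0.42, Sesn1 -0.32, Lama2 -0.29, Inha -0.28 and Ppard -0.23.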

How the results depend on the processing

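The count of 3091 genes called between untreated genotypes became 249 under a test against a minimum of 1.2-fold, the count of 5293 under overload became 712, and the interaction count of 2516 became 253; no other setting moved these counts, or that of genes at least 2-fold apart, by over 1.5 times. Under the other planned settings (only the 12 untreated arrays, same median, quantile normalization, no filter, 50th percentile filter, mean of probe sets, trended and robust variance, array weights) the untreated count ran from 2869 to 4139. Without single arrays it ran from 2598 to 3277, and the at least 2-fold count from 49 to 56. Without wildtype replicates 2 and 6 together, chosen after seeing the data, it was 2336. Of 130 called named genes none reversed, 59 lost their call under a processing alternative (5 under one other than the minimum fold) and 6 without 1 array. Counts within gene lists were less stable. Against the 1.2-fold minimum the falls went from 12 to 8 for slow-fibre genes, 17 to 3 for fatty acid genes, 11 to 0 for the respiratory chain, 7 to 1 for the citric acid cycle, 9 to 3 for clock genes and 7 to 1 for tenocyte markers. The rises went from 12 to 7 for amino acid and polyamine genes, 11 to 2 for glucocorticoid-responsive genes, 10 to 1 for IGF, insulin and Akt signalling, 9 to 3 for the atrophy programme and 6 to 1 for macrophage markers. Other list counts dropped against it too, among them the rises for calcium handling (7 to 0), redox (9 to 0), fast-fibre (5 to 0) and imprinted genes (8 to 3). Falls dropped likewise for calcium handling (8 to 2) and the sarcomere (11 to 5). Apart from that minimum and from single arrays left out, list counts of 3 or more given here moved by over 1.5 times as follows. Falls of satellite cell and myogenic genes went from 5 to 8 with only the untreated arrays. Citric acid cycle falls were 12 with only the untreated arrays and 4 at the same median, where mitochondrial ribosomal protein falls were 4 and endothelial falls 3. IGF, insulin and Akt rises were 6 after quantile normalization. Without wildtype replicates 2 and 6, rises of 7, 10, 9, 5, 5, 5 and 5 genes became 3 (calcium handling), 5 (IGF, insulin and Akt), 5 (atrophy), 3 (fast-fibre), 3 (glycolysis), 3 (sarcolemmal linkage) and 2 (ribosome), and falls of 11, 5 and 5 became 7 (respiratory chain), 3 (myostatin pathway) and 3 (redox). List counts under the other settings are not given here. Replicate numbers did not pair the arrays: correlations of same-numbered deviations ran from -0.0646 to 0.299, and 2 of 6 best matched their own number. With the replicate block the counts were 3004, 5219 and 2440, 52 genes were at least 2-fold, and 2 named genes (Myh1 and Cry2) lost their call, and fast-fibre rises were 3 in place of 5. Intensities near the filter limit what can be said of fold sizes, 6 arrays a group limit the precision, and gene lists overlap.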

Other observations

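Genes that lie beside Mstn on chromosome 1 were called at about the background share of 21.3%: 4 of the 20 nearest tested genes (20%), 9 of the 40 nearest (22.5%) and 21 of the 80 nearest (26.2%). Mettl21e was 1 of the nearest 40. Of 37 mitochondrial ribosomal protein genes 8 were lower and 3 higher in Mstn-/- muscle (29.7% called, median -0.06), and the count of falls was 4 without Mstn-/- replicate 1 and 5 without wildtype replicate 1 or 5, and 4 with the arrays at the same median. Of 25 ribosome genes 5 were higher and none lower (20%, against 11.1% higher and 21.3% called over all tested genes, median 0.04). The count was 3 without Mstn-/- replicate 2, 4 or 6 or wildtype replicate 3. Of 22 genes that link the sarcolemma to the matrix 5 were higher and 4 lower (40.9% called, median 0.02), with 3 rises without wildtype replicates 2 and 6.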
